A study of Mus musculus with 4 samples.

Results

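Glycolysis is the chain of cytosolic enzymes that breaks glucose down to pyruvate, and 10 of its genes were followed in bone marrow monocytes of young and old mice. They were taken by symbol from the gene rows of both deposited matrices, Hk2, Gpi1, Aldoa, Tpi1, Gapdh, Pgk1, Pgam1, Eno1, Pkm and Ldha, and all 10 were found among the 27998 genes of each matrix. The cells were classical monocytes (Ly6G-CD11b+CD115+Ly6Chi) sorted from the bone marrow of wild-type C57BL/6 mice. The cells of each mouse were labelled with their own hashtag, an antibody carrying a DNA barcode, and 5 young and 5 old mice of 1 sex shared a single-cell RNA library. By the methods of the study, the age was 14 weeks for the young and 27 months for the old mice of the male pool, and 15 weeks for the young and 26.5 months for the old mice of the female pool. The female and the male pool were separate experiments, and sex, library and version of the counting software cannot be told apart. The questions were whether the enzymes differ between young and old mice within a pool, and whether they differ between cells with and cells without a transcript of the proliferation genes Mki67 or Top2a.

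Hexokinase (here Hk2) traps glucose in the cell as a phosphate, Gpi1 isomerises it, and aldolase (Aldoa) splits the phosphorylated hexose into triose phosphates that Tpi1 interconverts. Gapdh oxidises glyceraldehyde phosphate, Pgk1 and Pkm each make ATP, Pgam1 and Eno1 prepare the phosphate for the last of these steps, and Ldha turns pyruvate into lactate and so regenerates NAD+. Phagocytes lean on glycolysis for energy during activation, proliferating cells also draw biosynthetic precursors from it, and many of its genes are textbook targets of the transcription factors HIF-1 and Myc.

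In GRCm38 (GENCODE vM21), the genes lie on chromosomes 4, 6, 7, 9, 19 and X. Chromosome 6 holds Hk2 (chr6:82725025-82774454, minus strand), Tpi1 (chr6:124810586-124814296, minus strand) and Gapdh (chr6:125161715-125166467, minus strand), and chromosome 7 holds Gpi1 (chr7:34201330-34230336, minus strand), Ldha (chr7:46841475-46855627, plus strand) and Aldoa (chr7:126795234-126800751, minus strand). The others are Pgk1 (chrX:106187100-106203699, plus strand), Pgam1 (chr19:41911923-41918660, plus strand), Eno1 (chr4:150236721-150248879, plus strand) and Pkm (chr9:59656368-59679375, plus strand). All 10 are annotated as protein-coding. Pseudogenes named after their parent (its symbol followed by ps and a number) are 2 each for Aldoa, Gapdh, Pgk1 and Pgam1 and 1 for Ldha. Copies of any member annotated under other names were not counted, so these numbers are minimums. Eno1 has the near copy Eno1b. How reads shared with such copies were counted is not given in the sources used here, so the levels of the members are uncertain to an unknown extent. Hk2, Gpi1, Aldoa, Tpi1, Gapdh and Pkm each overlap 1 other annotated gene, and reads of overlapping genes were not separated here.

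Promoters of 4 members are shown because they span the patterns described below: Ldha, Pgam1 and Eno1 were higher in old females and Hk2 lower, while Pgam1 and Ldha were higher and Eno1 and Hk2 lower in cells with Mki67 or Top2a. The windows hold the 250 bases before the gene start of RefSeq (GRCm38.p6), 5′ to 3′ on the strand of the gene. Ldha and Pkm have 2 listed starts and Eno1 and Aldoa have 3. For these, the start nearest to that of a transcript annotated as principal was used. The windows of all genes used for comparison were not chosen so. The windows of Ldha, Aldoa and Gapdh lie within the annotated span of their gene, and those of Tpi1 and Pkm in part. The windows shown, in the order Ldha, Hk2, Pgam1 and Eno1, are chr7:46845554-46845803 (plus), chr6:82774455-82774704 (minus), chr19:41911621-41911870 (plus) and chr4:150236458-150236707 (plus). Capitals mark ACGTG, a form of the core of the hypoxia response element, and its reverse complement CACGT. The other form of the core, GCGTG, was neither marked nor counted. A window with 0 matches may therefore still hold that form, as the Eno1 window does. Where a match on each strand overlaps, the run reads CACGTG, which is also the E-box that Myc can bind.
Ldha: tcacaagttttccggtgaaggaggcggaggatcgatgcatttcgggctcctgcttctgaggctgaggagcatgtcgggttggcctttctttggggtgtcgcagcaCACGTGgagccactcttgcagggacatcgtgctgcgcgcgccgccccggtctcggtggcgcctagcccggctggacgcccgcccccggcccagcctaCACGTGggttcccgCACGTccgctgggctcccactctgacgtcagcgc
Hk2: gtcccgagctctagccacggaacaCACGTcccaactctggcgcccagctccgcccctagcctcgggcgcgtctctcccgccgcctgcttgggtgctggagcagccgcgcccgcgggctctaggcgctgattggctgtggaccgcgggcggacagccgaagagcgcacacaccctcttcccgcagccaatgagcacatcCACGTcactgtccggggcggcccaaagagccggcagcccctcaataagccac
Pgam1: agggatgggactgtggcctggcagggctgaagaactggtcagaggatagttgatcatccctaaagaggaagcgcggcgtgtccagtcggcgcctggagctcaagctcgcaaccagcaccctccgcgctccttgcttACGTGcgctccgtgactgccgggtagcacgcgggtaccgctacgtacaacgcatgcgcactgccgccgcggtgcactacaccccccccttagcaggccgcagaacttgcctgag
Eno1: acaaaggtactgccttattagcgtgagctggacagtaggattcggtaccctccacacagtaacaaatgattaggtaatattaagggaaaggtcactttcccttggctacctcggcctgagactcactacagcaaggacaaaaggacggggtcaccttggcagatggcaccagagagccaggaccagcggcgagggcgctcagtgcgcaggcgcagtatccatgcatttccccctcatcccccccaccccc
Ldha held 5 matches over both strands, 4 of them in 2 overlapping pairs (CACGTG). Hk2 held 2 matches, Pgam1 1 and Eno1 0. All 10 members were found in the RefSeq promoter table, and 5 of them had at least 1 match (Hk2, Aldoa, Pgk1, Pgam1 and Ldha), against 16.6% of all 32851 windows of the same length. At least 2 matches were in 3 members (Hk2, Pgk1 and Ldha) and 6.81% of windows, and at least 3 in 1 member (Ldha) and 1.22% of windows. The share of G and C in the members' windows was 55.2% to 69.6%. That of the windows of all genes was not worked out. ACGTG itself holds a CG, so the comparison is not matched for base content. Of the 3 members with at least 2 matches, Ldha and Pgk1 were higher and Hk2 lower in cells with Mki67 or Top2a. With age in females Ldha was higher, Hk2 was lower and Pgk1 did not pass. The part of these motifs in the levels was not tested.

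A cell was given to the mouse of its leading hashtag, which left 7604 of 10433 female and 1226 of 1227 male barcodes. Of these, 1071 female and 400 male cells were doublets by the HTODemux caller and were kept, so that a value given for a mouse may hold cells of another. No barcode sequence was shared between the pools (0). Mice had 245 to 1837 cells in the female and 49 to 206 in the male pool, and the totals ran from 2861770 to 21892113 UMIs (unique molecular identifiers, 1 per captured transcript) per female and from 330586 to 1108320 per male. Old females had deeper cells (median 10106 to 15274.5 UMIs per mouse) than young females (8398 to 9476.5), and old males (4489.5 to 8844) than young males (3805.5 to 4455.5), without overlap. Of the monocyte markers, Ly6c2 was detected in 99.5% of female and 93.5% of male cells, Ccr2 in 98.7% and 93.3%, Lyz2 in 100% and 98.8%, Fn1 in 93.6% and 79.4%, Csf1r (which encodes CD115) in 91.5% and 54.1% and Itgam (CD11b) in 66.3% and 34.3%. Old male 4 stood apart, with 49 cells, the deepest male cells and a summed level of the 6 monocyte markers of 15904 CPM (UMIs per 1000000 of the mouse's UMIs in genes past the filter on low counts, with TMM scaling for composition) against 22809 to 37334 CPM in the other males. Several male results are therefore also given without it.

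Gapdh had the highest mean level in females of both ages and in old males and Pkm in young males, and Pgk1 in females and Hk2 in males had the lowest. Levels are in CPM, counted once per molecule at the 3′ end, so they were not divided by transcript length. In young females Gapdh was at 2539.6 ± 40.8 CPM (SD, n = 5 mice), followed by Pkm at 1111 ± 14.8 and Aldoa at 743 ± 17.6 CPM. Gpi1 came next at 641 ± 15.3 CPM, then Pgam1 at 597 ± 11.1, Ldha at 407 ± 18.9, Eno1 at 366 ± 6.67 and Tpi1 at 268 ± 7.77 CPM. Hk2 (43.3 ± 1.76 CPM) and Pgk1 (15.7 ± 1.53 CPM) were far below the rest. No neighbours in this order overlapped among young females, whereas among old females Pgam1 (646 to 789 CPM) overlapped both Aldoa (740.3 to 905 CPM) and Gpi1 (621 to 656 CPM), with its mean between theirs.

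The order differed in young males. Pkm (869.5 ± 46.7 CPM, SD, n = 5 mice) and Gapdh (845 ± 31.8 CPM) overlapped at the top, and Eno1 (718 ± 32.6 CPM) stood above Aldoa (546 ± 36.8 CPM). Pgam1 (355 ± 13.7 CPM) and Ldha (329 ± 23.4 CPM) overlapped below them, and Ldha also overlapped Gpi1 (289.9 ± 35.3 CPM), with Tpi1 (176 ± 17.5 CPM) lower still. Pgk1 was at 92.3 ± 9.26 CPM and Hk2 at 59.9 ± 9.91 CPM, which makes Pgk1 the enzyme with the largest ratio of levels between the pools. The near copy Eno1b was at 1.46 ± 0.257 CPM in young females and 3.19 ± 2.91 CPM in young males. Since sex, library and software version coincide, these differences in level were not tested.

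**Figure D1:**
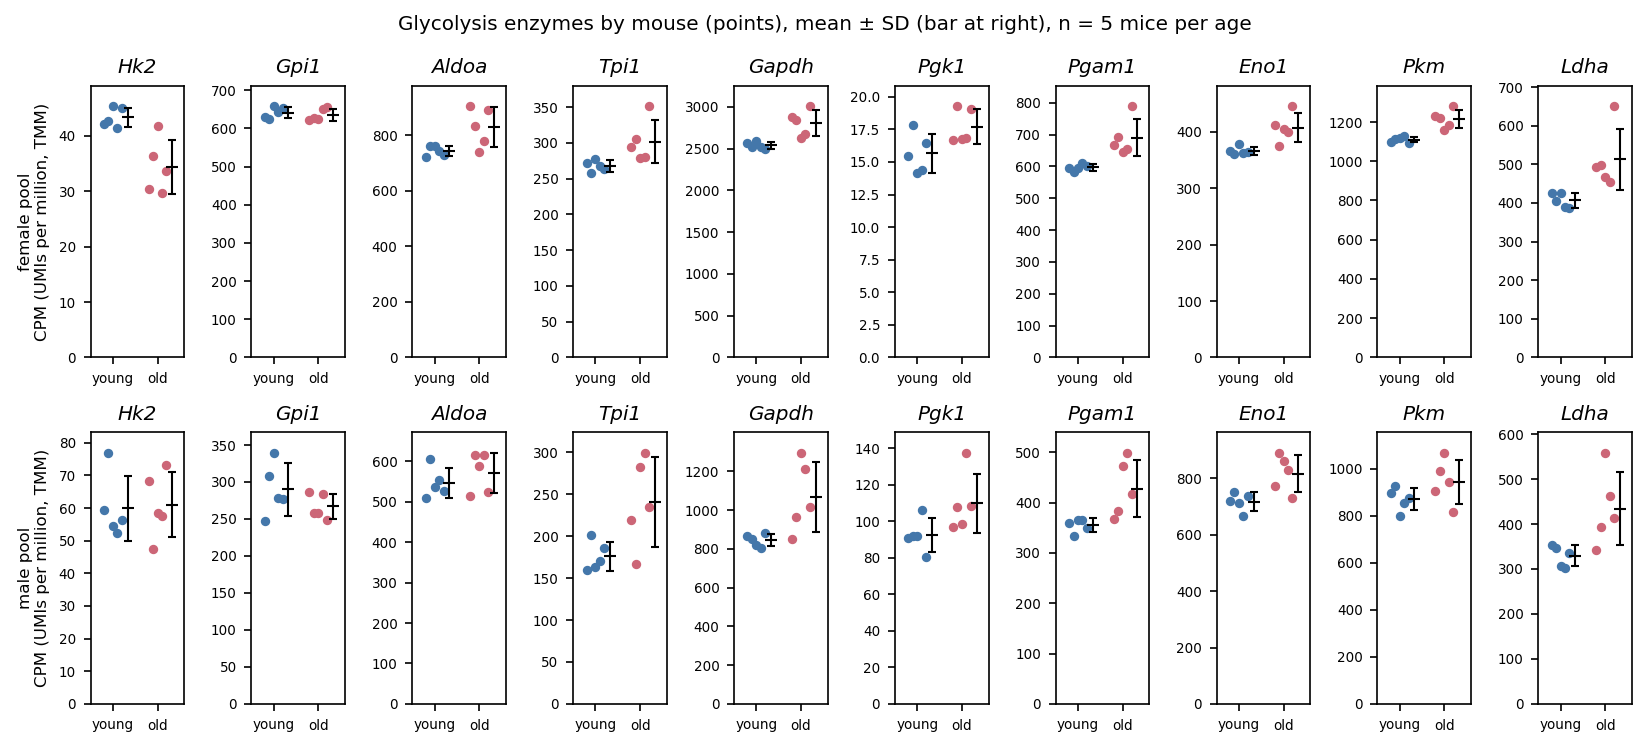
Level of each enzyme in CPM (vertical axes from 0) for 5 young (blue) and 5 old (red) mice of the female pool (top) and the male pool (bottom); points are mice and the bar at the right of each group is the mean ± SD. Old females lay above all young females for Tpi1, Gapdh, Pgam1, Pkm and Ldha, and old males above all young males for Pgam1.

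Ldha, Pgam1, Gapdh, Pkm and Eno1 were higher and Hk2 was lower in old than in young females, so that 6 of the 10 enzymes passed an adjusted p of 0.05, against 4.73% of all 10386 genes tested (5 higher against 2.4%, 1 lower against 2.33%). The changes were small, with fold changes of 1.09 to 1.26 for the former and 0.799 for Hk2. The median log2 fold change was 0.16 over the 10 enzymes and -0.0044 over all genes. The shares of all genes were not matched to the levels of the enzymes, which were chosen with earlier results of these data known. In these sums over a mouse, fewer cells of a type and less RNA per cell cannot be told apart.

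Ldha, the lactate-forming enzyme at the end of the chain, had the largest rise. It was at 388, 388, 404, 425 and 427 CPM in the young and 455, 468, 494, 498 and 651 CPM in the old females. The groups did not overlap, and a single old female (old female 5) lay far above the rest. The log2 fold change was 0.34 ± 0.078 (SE, adjusted p = 0.0246). Pgam1, which shifts the phosphate of phosphoglycerate, was at 581, 595, 596, 602 and 611 CPM in the young and 646, 653, 667, 693 and 789 CPM in the old. All old mice were again above all young mice, with old female 5 highest, and the log2 fold change was 0.21 ± 0.048 (SE, adjusted p = 0.0242).

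Gapdh, the oxidising step, was at 2496, 2516, 2523, 2568 and 2595 CPM in the young and 2632, 2675, 2845, 2878 and 3009.7 CPM in the old females, without overlap. Its log2 fold change was 0.14 ± 0.035 (SE, adjusted p = 0.0279). Pkm, the pyruvate kinase gene, was at 1092, 1100.1, 1113, 1120.3 and 1128 CPM in the young and 1157, 1183, 1222, 1229.6 and 1281 CPM in the old. Here too every old mouse exceeded every young mouse, and the log2 fold change was 0.13 ± 0.031 (SE, adjusted p = 0.029). Eno1, which makes phosphoenolpyruvate, was at 361, 363, 364, 365 and 378 CPM in the young and 375, 399, 406, 412 and 446 CPM in the old. A single old female fell within the range of the young, and the log2 fold change was 0.16 ± 0.042 (SE, adjusted p = 0.0474).

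Hk2, at the entry of glucose into the pathway, went the other way. It was at 41.4, 42.1, 42.7, 45 and 45.3 CPM in the young and 29.7, 30.4, 33.6, 36.3 and 41.8 CPM in the old females. Only the highest old mouse reached the range of the young, and the log2 fold change was -0.32 ± 0.084 (SE, adjusted p = 0.0413). The 4 enzymes that did not pass were Aldoa (0.16, adjusted p = 0.0802), Tpi1 (0.17, adjusted p = 0.0925), Pgk1 (0.17, adjusted p = 0.238) and Gpi1 (-0.012, adjusted p = 0.882). Of these, Tpi1 was at 258, 263, 268, 272 and 277 CPM in the young and 278, 279.7, 294, 305 and 351 CPM in the old, again without overlap, whereas Gpi1 ranged over 623 to 658 and 621 to 656 CPM, nearly the same span. In all, the old lay wholly above the young for 5 of the 10 enzymes (Tpi1, Gapdh, Pgam1, Pkm and Ldha), against 3.61% of all genes, and the young wholly above the old for 0 enzymes, against 3.58%.

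Of the 10 female mice, old female 5 had the highest level for 6 enzymes (Tpi1, Gapdh, Pgam1, Eno1, Pkm and Ldha). It also had the deepest cells and the highest summed level of the early granule genes Mpo, Elane, Prtn3 and Ctsg (9129.6 CPM). Without it, the log2 fold change of Ldha was 0.24 and 4 enzymes passed. The calls lay near the threshold and changed when single mice were left out. Leaving out young mouse 2 or 5 left 0 enzymes and young mouse 1 or 4 left 1. Without young mouse 3 or old mouse 1 or 2 there were 2, and without old mouse 3 or 4 there were 7. The log2 fold changes without young mouse 2 were 0.34 for Ldha, 0.20 for Pgam1, 0.15 for Eno1, 0.14 for Gapdh, 0.13 for Pkm and -0.32 for Hk2, near those with all mice. No enzyme that passed changed direction. With HTODemux singlets alone, Gapdh (0.11, adjusted p = 0.0839), Pgam1 (0.15, adjusted p = 0.0952) and Eno1 (0.16, adjusted p = 0.0535) did not pass. Of the 7 alternatives other than leaving out a mouse, Ldha passed in 7 and Gapdh in 6. Pgam1 and Pkm passed in 5 and Eno1 and Hk2 in 4.

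Marker lists moved with age in the female pool as well. The summed level of the dendritic-like genes (Cd209a, Cd74, H2-Aa, H2-Ab1 and H2-Eb1) was 1281 to 7409 CPM in the old and 561 to 1012 CPM in the young females, without overlap. Cells with a UMI of Cd209a itself went the other way. In old females they were 13 of 509, 34 of 434, 51 of 1035, 59 of 1128 and 39 of 524 cells. In young females they were 67 of 615, 54 of 538, 28 of 245, 158 of 1837 and 72 of 739 cells. Their share was thus lower in every old than in every young female. The 6 monocyte markers were at 22397 to 28975 CPM in the old and 28190.3 to 30589.6 CPM in the young, the 4 early granule genes at 5839.9 to 9129.6 CPM in the old and 5564 to 7537 CPM in the young and the 6 neutrophil granule genes (Camp, Ngp, Ltf, Lcn2, S100a8 and S100a9) at 245 to 1172 CPM in the old and 635 to 3412 CPM in the young. Of the markers of other cells, T and NK cell genes (4 of 5 found) stayed at 54.3 to 110.1 CPM in the old and 65.9 to 79.7 CPM in the young, basophil genes at 0.857 to 1.5 CPM in the old and 0.727 to 2.98 CPM in the young with Prss34 and Fcer1a at 0, plasmacytoid dendritic cell genes at 196 to 299.8 CPM in the old and 187 to 217 CPM in the young and erythroid genes at 3.52 to 7.91 CPM in the old and 6.02 to 29.5 CPM in the young. The part of these lists in the age effect was not tested. In the cells without a UMI of Mki67 or Top2a alone, a subset from which dendritic-like and granule-gene cells were not removed, 3 enzymes passed against 4.74% of genes, with log2 fold changes of 0.39 for Ldha, 0.20 for Gapdh and 0.20 for Pgam1. Pkm (0.13, adjusted p = 0.0545), Eno1 (0.15, adjusted p = 0.173) and Hk2 (-0.28, adjusted p = 0.198) did not pass there. With every cell thinned to 2000 UMIs, 2 enzymes passed against 2.8% of genes, Ldha (0.39) and Gapdh (0.18), while Pgam1 (0.20, adjusted p = 0.0576), Pkm (0.14, adjusted p = 0.105), Eno1 (0.14, adjusted p = 0.354) and Hk2 (-0.33, adjusted p = 0.287) did not.

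**Figure D2:**
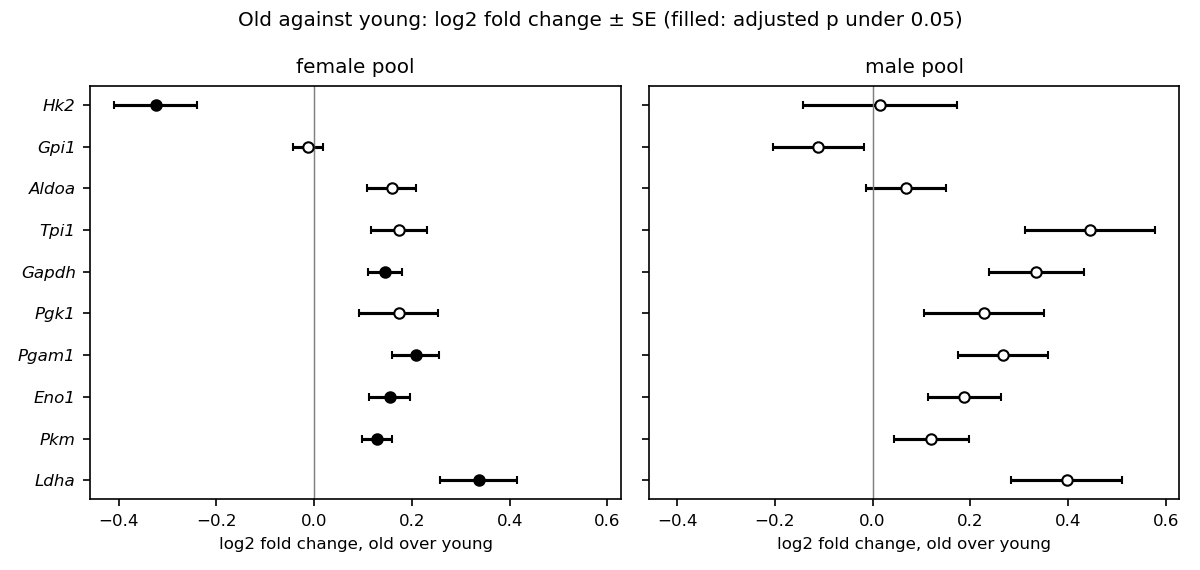
Log2 fold change of each enzyme, old over young, with its standard error (horizontal bars), in the female pool (left) and the male pool (right); filled points passed an adjusted p of 0.05 in edgeR's quasi-likelihood test. In females Ldha, Pgam1, Gapdh, Pkm and Eno1 lie above 0 and Hk2 below, and in males 0 points are filled while 9 of 10 lie above 0.

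In males, 0 enzymes and 0 of all 5655 genes tested (0%) passed. The lowest adjusted p over all genes was 0.0691, an unadjusted p under 0.05 was reached by 624 genes and 5 of the 10 enzymes, and DESeq2 called 12 genes higher and 10 lower and 0 enzymes. The log2 fold change was above 0 for 9 of the 10, with a median of 0.21 against 0.0073 over all genes. On simulated data, the age fit of the male pool recovered 4.08% of genes changed by a log2 of 0.3 and 75.3% of those changed by 1. For the female pool these shares were 39% and 98%, in both cases over genes of all levels. Ldha was at 302, 307, 336, 346 and 353 CPM in the young and 343, 394, 413, 462 and 559 CPM in the old males, with 1 old mouse inside the range of the young. Its log2 fold change of 0.40 ± 0.11 (SE) had an adjusted p of 0.228. Tpi1, the triose phosphate isomerase gene, was at 159, 163, 170.4, 186 and 201 CPM and 166, 219, 235, 283 and 299.6 CPM. The lowest old mouse again lay among the young, and the log2 fold change was 0.44 ± 0.13 (SE, adjusted p = 0.239).

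Gapdh was at 805, 821, 849.7, 868 and 881 CPM in young and 851, 965, 1014, 1209 and 1296 CPM in old males, with a log2 fold change of 0.34 ± 0.098 (SE, adjusted p = 0.228). Pgam1 was at 333, 350.2, 359, 365 and 366 CPM and 367, 383, 416, 473 and 499 CPM, so that the old lay just above the young without overlap, as for 0.884% of all genes. The reverse held for 0 enzymes and 1.24% of genes. Its log2 fold change was 0.27 ± 0.092 (SE, adjusted p = 0.299). Eno1 had 666 to 752 CPM in the young and 731 to 892 CPM in the old (0.19, adjusted p = 0.358). The remaining log2 fold changes were 0.23 for Pgk1, 0.12 for Pkm, 0.068 for Aldoa, 0.015 for Hk2 and -0.11 for Gpi1, with adjusted p values of 0.522 to 0.989. The ranges of Hk2 in young (52.3 to 77 CPM) and old males (47.5 to 73.1 CPM) overlapped widely.

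The highest of the 10 males was old male 4 for Tpi1, Pgk1, Pgam1 and Aldoa and old male 3 for Gapdh, Pkm and Ldha. Without old male 4 the log2 fold change was 0.36 for Tpi1, 0.21 for Pgam1 and 0.14 for Pgk1, and without old male 3 it was 0.29 for Ldha and 0.26 for Gapdh. Gapdh passed without old male 1 (0.40, adjusted p = 0.0464), and with no filter on low counts Gapdh (0.32, adjusted p = 0.0499) and Tpi1 (0.43, adjusted p = 0.0478) did. Beside these values, the summed monocyte markers were at 15904 to 33294 CPM in the old and 34271 to 37334 CPM in the young males, without overlap, the early granule genes at 2712 to 4323 CPM in the old and 2471 to 3011 CPM in the young, the neutrophil granule genes at 259.9 to 16636 CPM in the old and 314 to 11472 CPM in the young and the dendritic-like genes at 299.6 to 10325 CPM in the old and 1163 to 1938 CPM in the young. Old male 4 had the lowest dendritic-like genes and monocyte markers and the highest neutrophil granule genes of all males. It was also highest for 10 genes of G2 and mitosis (among them Cdk1, Birc5 and Ccnb2), at 2212 CPM against 885 to 1249 CPM in the other males. For 10 genes of S phase (among them Pcna and Mcm2) it was at 1354 CPM against 795 to 1182 CPM. Its T and NK cell genes, at 133 CPM, were the highest as well. The dendritic-like genes in the other old males were at 2209 to 10325 CPM, above all young males. Detection of Cd209a, itself on that list, did not rise with them. Young males 1 to 5 held it in 13 of 177, 10 of 134, 15 of 140, 15 of 127 and 14 of 122 cells. Old males 1 to 5 held it in 19 of 206, 5 of 116, 2 of 99, 3 of 49 and 5 of 56. The share was below every young male in old males 2, 3 and 4. Old males 1 and 5 lay within the young range. T and NK cell genes were at 41.4 to 133 CPM in the old and 17.1 to 61.9 CPM in the young, basophil genes at 31.1 to 582 CPM in the old and 23.9 to 496 CPM in the young, plasmacytoid dendritic cell genes at 119.8 to 234 CPM in the old and 133 to 186 CPM in the young and erythroid genes at 4.29 to 24 CPM in the old and 3.37 to 13.7 CPM in the young. Their part in the male values was not tested.

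The age effect was not shown to differ between the pools for any enzyme. In a fit over all 20 mice, 0 enzymes and 0.0225% of all genes (2 of 8885, with 0.0113% higher and 0.0113% lower) had an adjusted p under 0.05 for the interaction, and 0 enzymes and 448 genes had an unadjusted p under 0.05. DESeq2 called 2 genes higher and 1 lower and 0 enzymes. The interaction, female minus male, was -0.34 ± 0.18 (SE) for Hk2, -0.27 ± 0.15 for Tpi1 and -0.18 ± 0.10 for Gapdh, the 3 largest in size, with adjusted p values of 0.986. For Ldha it was -0.053 ± 0.14 and for Pgam1 -0.051 ± 0.10.

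With each cell thinned to 2000 UMIs, Ldha was detected in 53.7% ± 4.72 of old and 45.1% ± 1.32 of young cells in females (mean ± SD over 5 mice each), a difference of 8.56 percentage points, with all old mice above all young ones (two-sided exact permutation p = 0.00794, the smallest that 5 mice against 5 allow, and 0.0635 after adjustment over 10 enzymes and 2 pools). Pgam1 was detected in 62.9% ± 2.05 of old and 57.9% ± 1.27 of young cells in females, with the same p and adjusted p. In males Gapdh was found in 79.5% ± 4.45 of old and 69.3% ± 4.36 of young cells, a difference of 10.2 percentage points (exact permutation p = 0.0159, adjusted 0.0635). Of the 20 comparisons 0 passed after adjustment. Hk2 was found in only 6.55% ± 1.42 of old and 8.29% ± 0.874 of young cells in females and Pgk1 in 3.03% ± 0.706 of old and 2.53% ± 0.255 of young cells. Thinning left out 1 old and 15 young female and 26 old and 32 young male cells that were shallower.

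Pgam1, Tpi1, Pgk1, Ldha and Gapdh were higher in cells with a UMI of Mki67 or Top2a than in the other cells of the same mice in both pools, and Hk2 and Eno1 were lower. Mki67 and Top2a mark proliferating cells, and both classes were summed per mouse and compared within mice. In females all 10 enzymes passed, 8 higher and 2 lower, but so did 76.7% of all 9635 genes (38.2% higher, 38.5% lower). In males 8 passed, 6 higher and 2 lower, against 48.9% of 3751 genes (23.7% higher, 25.2% lower). The median log2 fold change of the enzymes was 0.55 in females and 0.27 in males, against -0.0093 and -0.022 over all genes. The classes differed in depth, with a median of 15887 UMIs in the 4455 female cells with and 7574 in the 3149 without such a UMI, and of 7879 in the 414 male cells with and 3900.5 in the 812 without.

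Pgam1 had the largest difference in females, whereas in males Ldha and Tpi1 and, downward, Hk2 exceeded it. In females it was at 307, 317, 328, 339, 352, 364, 372, 381, 383 and 388 CPM in the cells without and 671, 703, 706, 709, 711, 737, 738, 753, 775 and 889.5 CPM in the cells with, over the 10 mice. The ranges lay far apart, and the log2 fold change was 1.06 ± 0.032 (SE, adjusted p = 1.02e-23). In males it was at 213, 283, 303, 319, 342, 356, 357, 378, 425 and 545 CPM without and 381, 422, 427, 430.0, 446, 466, 515, 518, 542 and 579 CPM with. It was higher with such a UMI in 9 of 10 males, and the log2 fold change was 0.47 ± 0.095 (SE, adjusted p = 1.73e-04). The exception was old male 4 (545 CPM without and 515 CPM with), which had 9 cells in the class without.

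Tpi1 ranged over 134 to 198 CPM without and 299 to 388 CPM with in females (0.97 ± 0.034 SE, adjusted p = 6.02e-22), and over 120.1 to 321 and 201 to 343 CPM in males (0.55 ± 0.086 SE, adjusted p = 6.99e-06). The female ranges did not touch and the male ranges overlapped. Ldha ranged over 243 to 365 CPM without and 439 to 719 CPM with in females (0.77 ± 0.034 SE, adjusted p = 2.65e-19), and over 204 to 513 and 379 to 638 CPM in males (0.55 ± 0.086 SE, adjusted p = 7.21e-06). Gapdh ranged over 1551 to 2004 and 2813 to 3260.3 CPM in females (0.72 ± 0.025 SE, adjusted p = 3.25e-22), and over 670.0 to 1332 and 943 to 1433 CPM in males (0.34 ± 0.063 SE, adjusted p = 7.32e-05). All 3 were higher in the class with such a UMI in 10 of 10 females and 9 of 10 males, old male 4 being the exception each time.

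Pgk1, the first of the steps that make ATP, was at 18.9 ± 1.44 CPM in the cells with and 10.4 ± 2.88 CPM in the cells without in females (SD, n = 10 mice; 0.90 ± 0.093 SE, adjusted p = 3.60e-10), and at 123 ± 21.5 CPM in the cells with and 89.8 ± 26.9 CPM in the cells without in males (0.45 ± 0.14 SE, adjusted p = 0.00883). Aldoa was at 835 ± 69.1 CPM in the cells with and 640.4 ± 43.2 CPM in the cells without in females (0.38 ± 0.027 SE, adjusted p = 8.87e-14), and at 627 ± 56.6 CPM in the cells with and 555 ± 63.6 CPM in the cells without in males (0.19 ± 0.062 SE, adjusted p = 0.0115). The isomerase Gpi1 and the pyruvate kinase Pkm passed in females alone, at 0.26 ± 0.026 (SE, adjusted p = 8.20e-11) and 0.24 ± 0.022 (SE, adjusted p = 3.17e-11). Their values in males were -0.095 ± 0.082 (SE, adjusted p = 0.352) and -0.016 ± 0.063 (SE, adjusted p = 0.851). In females, 8 of the 10 enzymes were higher in every mouse, against 27.4% of all genes, and in males 0 were, against 11.1%.

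Hk2 and Eno1 went the other way. Hk2 was at 34, 34.8, 41.8, 44.2, 44.4, 49.4, 50.9, 51, 52.8 and 52.8 CPM without and 28.3, 29.3, 31.9, 34.9, 38.6, 39, 39.3, 40.4, 41.7 and 43.2 CPM with in females. It was lower in the cells with such a UMI in 10 of 10 females (-0.29 ± 0.051 SE, adjusted p = 5.41e-06) and in 10 of 10 males (-0.53 ± 0.15 SE, adjusted p = 0.00437), where it was at 51.9 ± 14.7 CPM in the cells with and 74.5 ± 11.5 CPM in the cells without. Of all genes, 24.3% were lower in every female and 8.48% in every male. Eno1 was at 379.9 ± 28.8 CPM in the cells with and 411 ± 36.1 CPM in the cells without in females and lower in 9 of 10 (-0.11 ± 0.028 SE, adjusted p = 6.60e-04), and at 763 ± 83.8 CPM in the cells with and 852 ± 99.1 CPM in the cells without in males and lower in 8 of 10 (-0.16 ± 0.055 SE, adjusted p = 0.0178). The male difference of Eno1 did not pass when old male 1, old male 3, young male 2 or young male 5 was left out (adjusted p = 0.0537 to 0.086), nor without TMM scaling, without the filter on low counts or without the term for the mouse.

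**Figure D3:**
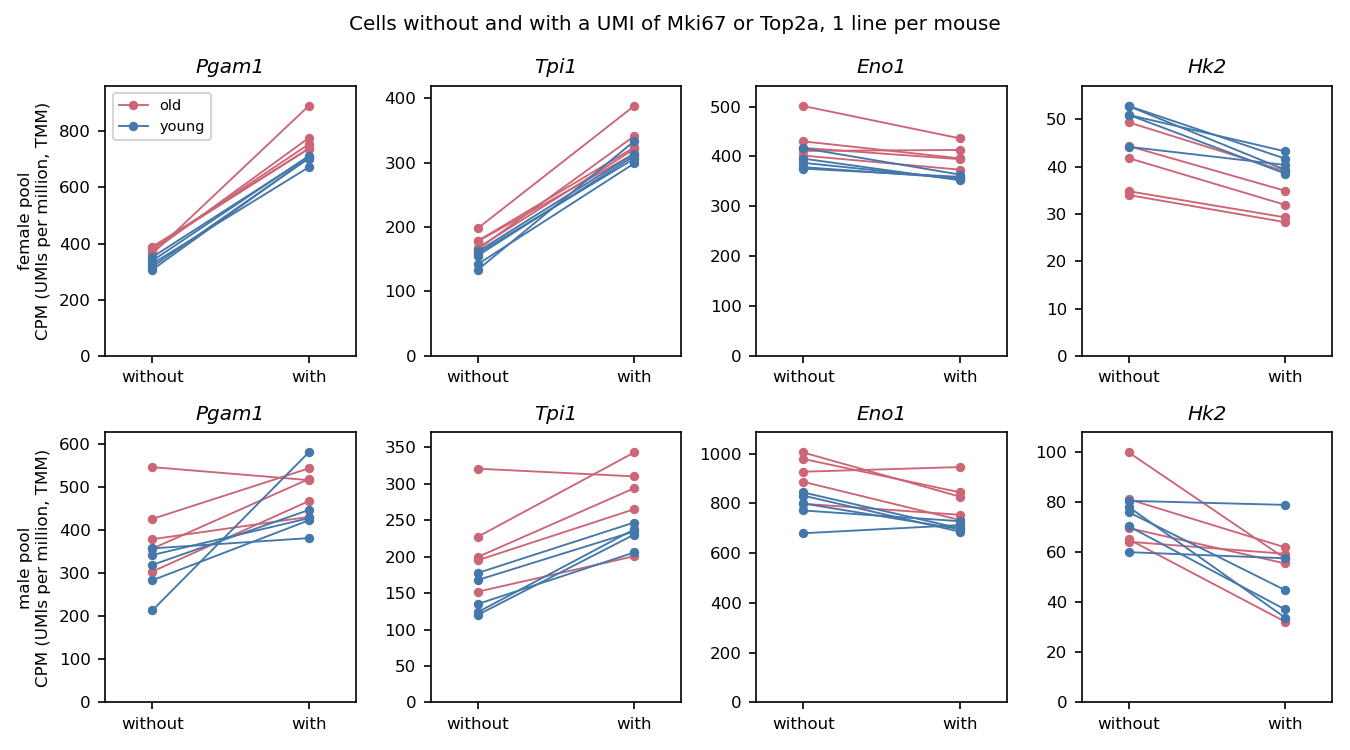
Levels of Pgam1, Tpi1, Eno1 and Hk2 in CPM (vertical axes from 0) in the cells without and with a UMI of Mki67 or Top2a, with 1 line per mouse (blue young, red old), in the female pool (top) and the male pool (bottom). Lines for Pgam1 and Tpi1 climb in all 10 females and 9 of 10 males, and lines for Hk2 fall in all 20 mice.

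With every cell thinned to 2000 UMIs and the classes drawn on the thinned counts, the female differences were smaller. Of the 9 enzymes still tested, 7 passed against 54.1% of all genes, Tpi1 (0.56), Pgam1 (0.52), Gapdh (0.38), Ldha (0.27), Aldoa (0.13) and Pkm (0.098) as higher and Eno1 (-0.18) as lower, while Gpi1 (0.088) and Hk2 (-0.12) did not. In males 0 of 8 passed, against 29.8% of genes, with 0.36 for Tpi1, 0.32 for Pgam1 and 0.27 for Ldha. DESeq2, the fit without TMM scaling, the split at 2 or more UMIs and the split by Cdk1, Birc5 or Ccnb2 each called 10 enzymes in females and 7 or 8 in males.

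Genes of other stages moved with the same split. The early granule genes Mpo, Elane, Prtn3 and Ctsg, which granulocyte and monocyte progenitors express, were higher in the cells with Mki67 or Top2a in 10 of 10 mice of each pool, with a median fold of 13.9 (5.93 to 23.8) in females and 2.99 (1.33 to 8.1) in males (range over mice). The neutrophil granule genes were higher in 10 of 10 females, at 4.45 (2.15 to 68.4), and in 8 of 10 males, at 4.27 (0.363 to 180.0). Their part in the difference of the enzymes was not tested. The 6 monocyte markers were higher in 0 of 10 mice of either pool, at 0.47 (0.391 to 0.498) in females and 0.47 (0.405 to 0.862) in males. T and NK cell genes were higher in 10 of 10 females (1.99) and 8 of 10 males (1.99), and plasmacytoid dendritic cell genes in 0 of 10 females and 1 of 10 males. The dendritic-like genes were higher in 0 of 10 mice of either pool, at 0.224 (0.113 to 0.363) and 0.103 (0.0339 to 0.615). Leaving out every cell with a UMI of Mpo, Elane, Prtn3, Camp, Ngp or Ltf kept only 293 cells in each pool, and 1 enzyme passed in each, of 8 tested in females (2.71% of genes) and of 7 in males (10.6% of genes), Gapdh in females (0.30) and Pgam1 in males (1.0). Those fits rested on 6 females and 4 males with at least 5 cells in each class. Most cells of both pools had been removed, so these fits cannot show the part of the granule genes.

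**Figure D4:**
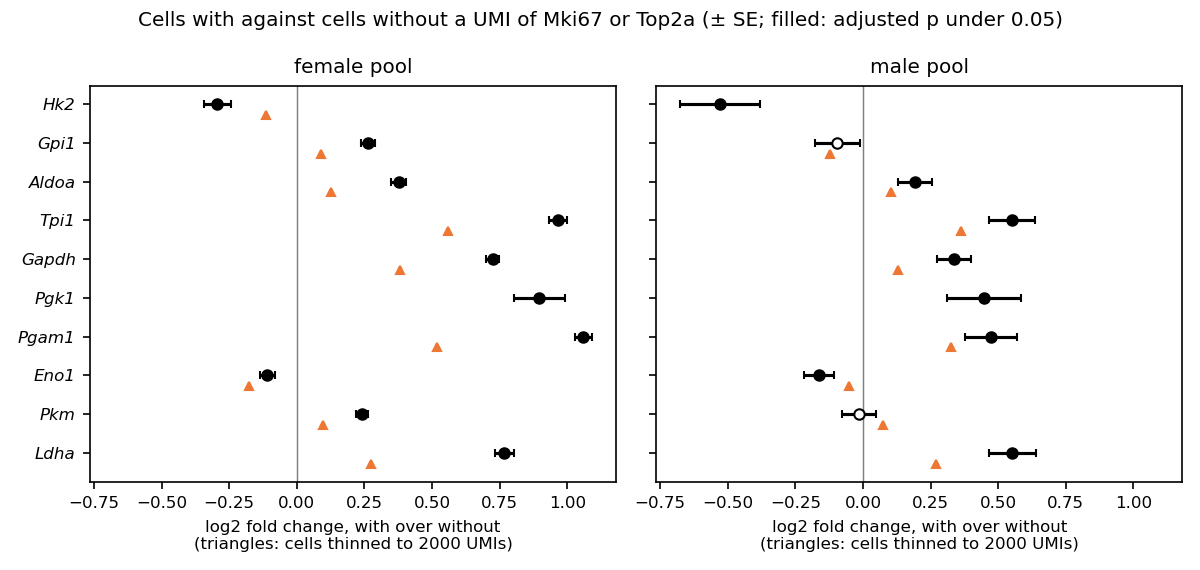
Log2 fold change of each enzyme between cells with and cells without a UMI of Mki67 or Top2a, with its standard error, in the female pool (left) and the male pool (right); filled points passed an adjusted p of 0.05, and orange triangles give the value after thinning every cell to 2000 UMIs. Pgam1 (1.06 in females, 0.47 in males) lies far to the right and Hk2 (-0.29 and -0.53) to the left of 0, and the triangles of Pgam1, Tpi1, Gapdh and Ldha lie nearer to 0 than the unthinned points.

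The difference between the classes was itself larger in females for 4 enzymes, Pgam1 (0.52 ± 0.094 SE, adjusted p = 2.09e-04), Tpi1 (0.35 ± 0.089 SE, adjusted p = 0.00993), Gapdh (0.32 ± 0.061 SE, adjusted p = 3.86e-04) and Gpi1 (0.30 ± 0.079 SE, adjusted p = 0.0154), against 5.86% of 6261 genes (5.08% higher, 0.783% lower in females), in a fit over all 20 mice that was added after the split had been seen in each pool. Pkm was at 0.19 ± 0.060 (SE, adjusted p = 0.0508) and Pgk1 at 0.38 ± 0.17 (SE, adjusted p = 0.197). Gpi1 fell short without young female 1, young female 2 or young male 5. Sex, library and software version coincide and cannot be told apart as the source of the difference. The pools also differ in depth, and this fit was not run on thinned cells, so the part of depth was not tested. Values after thinning are given above in each pool for Pgam1 and Tpi1.

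With all UMIs counted, cells with a UMI of Mki67 or Top2a took a larger share of the old cells, which were deeper, than of the young cells. They were 54.1, 54.7, 56.6, 56.6 and 58.6% of the cells of the young and 57.5, 57.9, 65.2, 66.6 and 66.6% of those of the old females. The means were 62.8% ± 4.66 in the old and 56.1% ± 1.76 in the young (SD, n = 5 mice each), a difference of 6.65 percentage points (two-sided exact permutation p = 0.0238, adjusted over the 2 pools 0.0238). With HTODemux singlets alone the female difference was 4.12 percentage points (exact permutation p = 0.103) and did not pass. Males had 25.4, 29.1, 29.3, 29.9 and 30.5% in the young and 31.9, 34.5, 37.5, 42.4 and 81.6% in the old, a difference of 16.7 percentage points (exact permutation p = 0.00794, adjusted 0.0159), which came to 7.73 percentage points without old male 4. The call was lost without young female 1, 3, 4 or 5 in females and without any 1 of the 5 young males in males. In each of these male settings every old male still lay above every young male that was left. After thinning the differences were 6.01 (exact permutation p = 0.00794) and 6.71 percentage points (exact permutation p = 0.373). The thinned male shares were 14.3, 16.1, 17.5, 21.4 and 24.0% in the young and 16.7, 18.5, 21.2, 21.5 and 48.9% in the old. The highest was old male 4, and the other old males lay within the range of the young. The summed G2 and mitosis genes overlapped between the ages, at 885 to 2212 CPM in old and 915 to 1151 CPM in young males. In females they were at 1911 to 2288.5 CPM in the old and 1865 to 1981 CPM in the young. The part of these shares in the age effect of the enzymes was not tested beyond the values given for cells without such a UMI alone. The age effect of the enzymes was not shown to differ between the classes: 0 enzymes passed in either pool, against 0.239% of 9635 genes in females and 0% of 3751 in males. At an unadjusted p under 0.05 there were 1 enzyme and 713 genes in females and 0 enzymes and 169 genes in males, and DESeq2 called 0 enzymes in either. The smallest unadjusted p among the enzymes was for Gapdh in females, where the age effect differed by -0.11 ± 0.045 (SE, adjusted p = 0.485) (cells with minus cells without).

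Cells with a UMI of Cd209a, a lectin of dendritic-like monocytes, had less of most of these enzymes in females and of 2 in males. In females 7 enzymes were lower and 0 higher in the 575 cells with than in the 7029 without, against 19.9% of 8729 genes called (10.4% higher, 9.54% lower). The order was Pgam1 (-0.39 ± 0.050 SE, adjusted p = 1.41e-06), Aldoa (-0.36 ± 0.045 SE, adjusted p = 7.69e-07), Ldha (-0.27 ± 0.057 SE, adjusted p = 8.93e-04), Tpi1 (-0.26 ± 0.060 SE, adjusted p = 0.00176), Pkm (-0.24 ± 0.034 SE, adjusted p = 4.86e-06), Gapdh (-0.22 ± 0.031 SE, adjusted p = 5.18e-06) and Gpi1 (-0.19 ± 0.043 SE, adjusted p = 0.00214). Pgam1, Pkm, Gapdh and Aldoa were lower in 10 of 10 mice. Pkm, for example, was at 1104, 1125, 1134, 1138, 1147, 1173, 1199.6, 1237, 1249 and 1304 CPM without and 932, 938, 967, 978, 988, 1018, 1024, 1033, 1054 and 1062 CPM with. The median depth of these classes was 11357 UMIs with and 10191 without. The summed early granule genes were higher in 0 of 10 mice in the cells with Cd209a, at 0.201 (0.132 to 0.695). The S phase genes were likewise higher in 0 of 10 (median fold 0.771). The neutrophil granule genes (0.109) and the monocyte markers (0.910) were higher in 2 of 10. The G2 and mitosis genes (1.26) were higher in 8 of 10 and the plasmacytoid dendritic cell genes (1.44) in 10 of 10. The part of these lists in the difference was not tested.

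In males 101 cells held a UMI of Cd209a, and 8 of the 10 mice had at least 5 such cells and entered the comparison. Pkm (-0.68 ± 0.10 SE, adjusted p = 6.71e-05) and Eno1 (-0.40 ± 0.11 SE, adjusted p = 0.025) were lower, against 8.21% of 2498 genes called (4.52% higher, 3.68% lower). Pkm was at 920.2, 927, 972, 972, 1000.1, 1033, 1049.5 and 1113 CPM without and 461, 467, 585, 608, 670.3, 672, 716 and 767 CPM with, lower in 8 of 8 mice and without overlap of the ranges. In these male cells the monocyte markers (0.635), the early granule genes (0.126) and the neutrophil granule genes (0.0779, median folds) were higher in 0 of 8 mice and the plasmacytoid dendritic cell genes (1.86) in 8 of 8. The G2 and mitosis genes (1.67) were higher in 6 of 8 and the S phase genes (0.773) in 2 of 8. The part of these lists in the difference was not tested. Hk2, at 0.46 ± 0.24 (SE, adjusted p = 0.309), did not pass, although it was higher in 8 of 8 mice (89.9 ± 22.7 CPM in the cells with and 64.7 ± 11.2 CPM in the cells without). Cells with a UMI of the neutrophil granule genes Camp, Ngp or Ltf had slightly more of 4 enzymes in females, Tpi1 (0.17 ± 0.034 SE, adjusted p = 5.34e-04), Pgam1 (0.16 ± 0.029 SE, adjusted p = 1.42e-04), Ldha (0.13 ± 0.033 SE, adjusted p = 0.0061) and Gapdh (0.11 ± 0.018 SE, adjusted p = 4.85e-05), against 10.7% of 8959 genes (5.46% higher, 5.27% lower), in 819 cells whose median depth was 14312 UMIs against 10013 in the others. In those female cells the G2 and mitosis genes (median fold 1.17) and the early granule genes (1.44) were each higher in 9 of 10 mice. The S phase genes (1.15) were higher in 8 of 10 and the monocyte markers (0.832) in 0 of 10, and the part of these lists was not tested. In males 0 enzymes passed in the split by granule genes, against 0.332% of 2412 genes (8 genes). With an unadjusted p under 0.05 there were 0 enzymes and 115 genes, and DESeq2 called 8 genes higher, 1 lower and 0 enzymes.

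The other genes around the pathway were taken from 7 lists. They were not followed under the alternatives or with a mouse left out. Among the 16 other enzymes of glycolysis, 11 were tested with age in females, and 2 rose and 1 fell. Of all genes, 2.4% were higher and 2.33% lower there. The rising genes encode phosphofructokinase, the step between Gpi1 and Aldoa: Pfkp was at 72.4 ± 5.5 CPM in young and 89.2 ± 8.04 CPM in old females (SD, n = 5; log2 fold change 0.31 ± 0.066 SE, adjusted p = 0.0152), and Pfkl at 33.7 ± 1.47 and 40.5 ± 3.03 CPM (0.27 ± 0.061 SE, adjusted p = 0.0209). Ldhb, the other lactate dehydrogenase subunit, fell while Ldha rose, from 66 ± 2.93 CPM to 40.3 ± 12.7 CPM (-0.69 ± 0.15 SE, adjusted p = 0.0185). The hexokinases Hk1 (0.17 ± 0.074 SE, adjusted p = 0.203) and Hk3 (0.033 ± 0.10 SE, adjusted p = 0.911), the muscle-type Pfkm (0.33 ± 0.17 SE, adjusted p = 0.287) and Eno1b (-0.12 ± 0.18 SE, adjusted p = 0.792) did not pass.

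The counts that follow for females also stand against 2.4% of all genes higher and 2.33% lower with age. Of 6 transporter genes 1 rose with age in females, the glucose transporter gene Slc2a1, from 11.2 ± 2.37 CPM to 15.3 ± 0.893 CPM (0.40 ± 0.11 SE, adjusted p = 0.0478). Of 14 regulators tested 1 rose and 2 fell. Hif1a, the oxygen-regulated subunit of HIF-1, rose from 35.3 ± 2.16 CPM to 48.5 ± 8.25 CPM (0.47 ± 0.098 SE, adjusted p = 0.014). Pfkfb4, which sets the level of an activator of phosphofructokinase, fell (-0.44 ± 0.12 SE, adjusted p = 0.0444), as did Txnip, a brake on glucose uptake (-0.36 ± 0.072 SE, adjusted p = 0.0118, chosen after its value was seen). Of 8 other HIF-1 targets 1 rose, Ankrd37, from 2.37 ± 0.739 CPM to 6.03 ± 1.94 CPM (1.26 ± 0.25 SE, adjusted p = 0.0111). In the pyruvate dehydrogenase and pentose phosphate lists (7 tested each) and the glycogen and gluconeogenesis list (6 tested), 0 passed. In males 0 genes of the 7 lists passed with age, and the values there were 0.81 for Pfkl, 0.36 for Pfkp, -0.46 for Ldhb and -0.027 for Hif1a.

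Between the cell classes in females, where 38.2% of all genes were higher and 38.5% lower, all 7 pyruvate dehydrogenase and pyruvate carrier genes tested were higher in cells with Mki67 or Top2a, as were 4 of 9 other enzymes with 0 lower, while the regulators split into 5 higher and 6 lower of 12 and the other HIF-1 targets into 3 higher and 5 lower of 8. The pentose phosphate genes were 3 higher and 4 lower of 7, the transporters 1 higher and 2 lower of 5 and the glycogen and gluconeogenesis genes 2 higher and 1 lower of 6. The largest differences were in the lactate and pyruvate transporter gene Slc16a1 (2.49 ± 0.20 SE, adjusted p = 1.71e-12), Myc (1.75 ± 0.12 SE, adjusted p = 4.78e-14), Txnip (-1.64 ± 0.038 SE, adjusted p = 5.23e-27), Mif, a cytokine gene on the HIF-1 list (1.64 ± 0.045 SE, adjusted p = 7.10e-25), and Pfkfb4 (-1.37 ± 0.071 SE, adjusted p = 1.38e-17). Hif1a, chosen after its value was seen, was lower, at -0.84 ± 0.068 (SE, adjusted p = 1.31e-12), and its age effect differed between the classes, at -0.51 ± 0.10 (SE, adjusted p = 0.0165), cells with minus cells without. Hk3, the hexokinase of myeloid cells, was higher (0.60 ± 0.057 SE, adjusted p = 5.10e-11) where Hk2 was lower. Pfkp (0.29 ± 0.041 SE, adjusted p = 1.40e-07), Pfkl (0.29 ± 0.071 SE, adjusted p = 5.53e-04) and Ldhb (0.30 ± 0.059 SE, adjusted p = 3.96e-05) were higher too, while Hk1 (0.058 ± 0.071 SE, adjusted p = 0.463) and Pfkm (0.36 ± 0.21 SE, adjusted p = 0.118) did not pass.

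In males, where 23.7% of all genes were higher and 25.2% lower, the lists held fewer tested genes. Of 2 regulators tested, Txnip (-1.57 ± 0.12 SE, adjusted p = 3.99e-11) and Hif1a (-1.10 ± 0.21 SE, adjusted p = 8.93e-05) were both lower, and Pfkp (0.43 ± 0.17 SE, adjusted p = 0.0361) was the 1 of 3 other enzymes to pass, while Hk3 (0.33 ± 0.15 SE, adjusted p = 0.072) and Ldhb (-0.16 ± 0.17 SE, adjusted p = 0.464) did not. The glycogen phosphorylase gene Pygl was lower (-1.0 ± 0.14 SE, adjusted p = 8.69e-07), and Pck2 (0.98 ± 0.26 SE, adjusted p = 0.00297) and the pentose phosphate gene Rpia (0.93 ± 0.14 SE, adjusted p = 5.90e-06) were higher. Counts were 0 of 5 for the pyruvate dehydrogenase list, 2 higher and 2 lower of 7 for the pentose phosphate list, 1 lower of 2 for transport, 1 higher of 3 for the other HIF-1 targets and 1 higher and 1 lower of 2 for glycogen and gluconeogenesis. In female cells with Cd209a, Ldhb (-0.98 ± 0.11 SE, adjusted p = 6.41e-08), Mif (-0.51 ± 0.096 SE, adjusted p = 2.83e-04), Pygl (-0.46 ± 0.073 SE, adjusted p = 2.98e-05) and the pentose phosphate gene Pgd (-0.39 ± 0.061 SE, adjusted p = 2.17e-05) were lower and Vhl, part of the complex that degrades the HIF-1 subunit, was higher (0.66 ± 0.10 SE, adjusted p = 2.92e-05).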

How the data were processed

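Single-cell RNA libraries (10x Single Cell 3′ v3.1 kit) of 2 pools of 10 hashtag-labelled mice were analysed. The authors deposited whole-number counts of unique molecules per gene and cell, not normalised, and hashtag counts. The submitters' processing notes name STAR 2.5.1, Cell Ranger 4.0.0 and mm10, whereas the file headers give Cell Ranger 3.1.0 (female) and 7.0.0 (male). Cells with over 200 genes and under 5% mitochondrial counts were kept and given to the mouse of the leading hashtag, which needed at least 10 counts and 3 times the second. This margin was the treatment of doublets, and Seurat 5.3.0 HTODemux singlets were an alternative.

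UMIs were summed per mouse, or per mouse and class with at least 5 cells in each class, and tested with edgeR 4.0.16 (quasi-likelihood, TMM scaling, filter on low counts, R 4.3.3) over all genes, with Benjamini-Hochberg adjusted p values and a threshold of 0.05. The SE given with a log2 fold change was worked back from edgeR's test, as its size over the square root of the F statistic. Class comparisons had the mouse as a block, since both classes came from the same animal. Age was compared between 5 old and 5 young mice within a pool, and differences between pools by an interaction term. Shares of cells were compared by exact permutation tests. Intervals of counting error are not given, since mice are the replicates. Alternatives were DESeq2 1.42.0, library size scaling, no filter, other cell sets, thinning to 2000 UMIs per cell and leaving out each mouse, and the age and Mki67 or Top2a fits of each pool were tested on simulated data. Besides the 10 enzymes, the text names up to 5 passing genes of the pathway lists per comparison, by size, and by name Eno1b, Ldhb, Hk1, Hk3, Pfkl, Pfkp and Pfkm. Passing list genes are not named for the female split by granule genes and the male split by Cd209a. They are also not named for the difference of the Mki67 or Top2a split between the pools. The members and lists were chosen with earlier results of these data known. Promoters are from RefSeq (GRCm38.p6) and positions from GENCODE vM21. Figures were drawn with Python 3.11.15 and matplotlib 3.10.9.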

Additional observations from a re-analysis of the deposited data

Results flagged for a closer look

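Of the groups of 5 mice, 44 were searched for a mouse far from the others (Dixon's test), where chance flags about 1 in 20 groups, and 6 were found. Ldha in old female 5 was at 651 CPM, against 455 to 498 CPM in the other old females. Eno1 in young female 3 was at 378 CPM, against 361 to 365 CPM. Pgk1 in old male 4 was at 138 CPM, against 96.8 to 108 CPM, and Hk2 in young male 2 was at 77.0 CPM, against 52.3 to 59.5 CPM. The share of cells with a UMI of Mki67 or Top2a was 81.6% in old male 4, against 31.9% to 42.4% in the other old males, and 25.4% in young male 5, against 29.1% to 30.5%.

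The log2 difference between cells with and without a UMI of Mki67 or Top2a was larger in the female than in the male pool, by the test of the difference itself, for Pgam1 (by 0.52), Tpi1 (0.35), Gapdh (0.32) and Gpi1 (0.30). Sex, library and software version cannot be told apart in these differences, and the part of depth was not tested.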

How the results depend on the processing

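Of the enzyme-level values under the alternatives other than leaving out a mouse, 330 kept their direction and side of the threshold, 31 lost and 3 gained the call, and 18 changed sign, and the cause was not tested. The count of enzymes called with age in females (6) was 3 with HTODemux singlets, 2 after thinning, 3 in cells without Mki67 or Top2a, and 0 to 7 with each mouse left out in turn. In males (0) it was 2 with no filter and 0 to 1 with a mouse left out. For the Mki67 or Top2a split, leaving out cells with progenitor or granule genes (Mpo, Elane, Prtn3, Camp, Ngp or Ltf) left 1 enzyme in each pool, with only 293 cells kept in each. In males HTODemux singlets gave 5 and thinning 0. Shares of cells with an enzyme's UMI gave 4 calls without thinning and 0 to 4 with a mouse left out. The old minus young share of cells with Mki67 or Top2a was 4.12 percentage points with HTODemux singlets in females, no longer past the threshold (5.69 to 7.96 with a mouse left out) and 6.71 after thinning in males, likewise (7.73 to 20.2).

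Signs changed only for values that had not passed or no longer did. Without the progenitor or granule gene cells the split gave -0.27 for Aldoa, 0.0080 for Eno1, -0.031 for Gpi1 and -0.10 for Ldha in females, and -0.24 for Aldoa and 0.096 for Gpi1 in males. Thinning turned the age effect of Gpi1 in females (0.020) and of Hk2 in males (-0.028), and the split of Pkm in males (0.072), which was also 0.032 without TMM, 0.0017 with no filter and 0.049 split by Cdk1, Birc5 or Ccnb2. The difference of the age effect between the pools was -0.0038 for Aldoa, -0.022 for Gpi1 and -0.0063 for Pkm with HTODemux singlets, -0.0063 for Pkm with DESeq2, and 0.052 for Pgk1 and -0.045 for Pkm in cells without Mki67 or Top2a.

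With a mouse left out, signs also changed, with these ranges. For the difference of the age effect between cycling classes in females they were Aldoa -0.020 to 0.045, Eno1 -0.0064 to 0.042, Hk2 -0.084 to 0.049, Pkm -0.043 to 0.0026. For the difference of the age effect between cycling classes in males they were Eno1 -0.071 to 0.036, Hk2 -0.072 to 0.24. For the difference of the age effect between the pools they were Eno1 -0.072 to 0.012, Ldha -0.16 to 0.069, Pgam1 -0.11 to 0.0084, Pgk1 -0.10 to 0.033, Pkm -0.041 to 0.065. For the difference of the cycling split between the pools they were Eno1 -0.062 to 0.015. For the age effect in males they were Hk2 -0.061 to 0.12. For the cycling split in males they were Pkm -0.044 to 0.030.

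Without the replicate block for the mouse (no replicate block), the split called 10 enzymes in females and 7 in males. No paired analysis was possible because young and old mice were different animals, and hashtag numbers are only names, for the comparison of ages. Fewer and shallower cells were measured in males than in females. Pgk1 in females and Hk2 in both pools rest on few UMIs per cell.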
